A study of Mus musculus with 7 samples.

Results

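The 43 genes described here encode the enzymes and transporters that build glycosaminoglycans and hyaluronan, with the enzymes that trim them. They were chosen by gene name for their function; the choice used no measured value as a criterion but was made with earlier results of these data known. They are 43 of 52459 gene names in the count table. They fall into 6 steps: the linker (5 genes), the chondroitin chain (6), chondroitin and dermatan sulfation (8), sulfate and precursor supply (5), the heparan chain and its sulfation (14) and hyaluronan (5). All 43 were in the table, and all 43 passed the filter on low counts that left 13367 genes to test. Has1 passed it only through the TGFβ1 libraries, where it had 87 and 87 counts, against 0, 1 and 6 with BMP2 and 1 and 0 with vehicle.

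RNA was sequenced in bulk from primary chondrocytes of the mouse femoral head, grown in medium with fetal bovine serum. The cells were cultured for 24 h with BMP2 at 100 ng/ml (3 libraries, replicates 1, 2 and 3), with TGFβ1 at 5 ng/ml (2 libraries, replicates 1 and 3), or with vehicle (2 libraries, replicates 1 and 2). The labels give no age, strain or genotype. Whether replicates are separate animals or cultures is not stated either, so the p-values measure only how far these libraries scatter, which may be a technical spread.

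Most glycosaminoglycans are made on a serine of a core protein. A xylose starts a short linker, after which the chain grows either as chondroitin or as heparan, by turns of an amino sugar and glucuronic acid. Sulfotransferases then place sulfate taken from the donor PAPS, and the sulfated chains of aggrecan hold the water that lets cartilage bear load. Hyaluronan has no core protein and no sulfate, and is made at the cell membrane as the backbone on which aggrecan is arrayed. Inherited loss of the sulfate transporter SLC26A2 in humans causes skeletal dysplasias.

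Counts per library totalled between 6747997 and 18047765, and both TGFβ1 libraries were deeper than all others, at 18047765 and 16271793. The 11 chondrocyte markers checked were all tested, and their summed level was 49580 to 56160 CPM (counts scaled to an effective library size of 1000000) with BMP2, 36120 to 42350 CPM with TGFβ1 and 57010 to 57060 CPM with vehicle. Col2a1 held most of each of these sums, so they say little of the other chondrocyte markers. Matn1 averaged 1991 CPM with vehicle, 682 with BMP2 and 251 with TGFβ1, and Col9a2 averaged 466, 589 and 461 CPM. In the same order, Acan averaged 3456, 5375 and 1880 CPM, Sox9 542, 623 and 206, and Hapln1 1104, 1476 and 259. Matn3 averaged 642.5, 706 and 222 CPM, Comp 1681, 1754 and 1246, and Col2a1 35500, 30950 and 29570. Col9a1 averaged 2121, 1997 and 628.5 CPM, Col11a1 7860, 6329 and 3186, and Col11a2 1669, 1832 and 1325. Osteoblast markers summed to between 184 and 265 CPM over all libraries and osteoclast markers to between 89.1 and 141 CPM, with Calcr at 0. The osteoblast sum hides differences between its members. Ibsp averaged 80.1 CPM with BMP2, 143.8 with TGFβ1 and 174.3 with vehicle, and Sp7 averaged 70.2, 16.3 and 28.35 CPM. Nearly all of the osteoclast sum was Ctsk. Leukocyte markers summed to between 14.1 and 31.5 CPM, synovial fibroblast markers to between 6.77 and 13.2 CPM, and the 5 endothelial, 5 erythroid and 5 muscle markers to at most 1.86 CPM per list, with Cdh5, Hbb-bs, Hbb-bt and Myod1 at 0 in all libraries. The 5 adipocyte markers summed to 8.66 to 17.9 CPM with BMP2, 49.9 to 57.0 CPM with TGFβ1 and 4.81 to 8.37 CPM with vehicle; nearly all of it was Fabp4. The part of other cells in the results was not tested, and in bulk RNA fewer cells of a type and less RNA per cell cannot be told apart.

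Both TGFβ1 libraries stood apart from the other 5. Ribosomal protein genes held 1.16% to 1.48% of the counts with BMP2, 6.76% and 6.86% with TGFβ1 and 1.13% and 1.19% with vehicle. The gene name CT010467.1 held 13.8% to 15.9% with BMP2, 5.29% and 5.19% with TGFβ1 and 16.2% and 14.6% with vehicle. The log2 fold change (log2FC) also followed transcript length. For TGFβ1 against vehicle its median was 2.87 among the 671 shortest genes (up to 750 nt) and −0.57 among those above 7000 nt; for BMP2 against vehicle these medians were 0.08 and −0.08. The ligand coincides with this trend, with these shares of the counts and with the depth, and they cannot be told apart. Member transcripts run from 1603 to 9020 nt, so each value was computed again with a correction for the length and GC content of the transcript, the length offset, and is given in that form too where it ends or makes a call or moves a value past the threshold by over 1.5 times. Libraries of a group were compared by a chi-square per gene. It was largest between the TGFβ1 libraries, at 41.8, and was 4.5 between the vehicle libraries. This value grows with the depth of the libraries, which was 18047765 and 16271793 counts with TGFβ1 and 6885056 and 7387051 with vehicle. It therefore does not rank the scatter of the groups. BMP2 replicate 1 differed from the other BMP2 libraries by more than these did from each other, at 13.6 and 17.8, against 1.84 between replicates 2 and 3.

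Levels of different genes are compared only as CPM per kb of the gene length in the deposited table. Sums and shares of such levels, here and below, carry no length offset. In vehicle the sulfate and precursor supply genes summed to 238 and 220.0 CPM per kb, more than any other step. Papss2, the main PAPS synthase gene of cartilage, stood at 145 ± 10.2 CPM per kb (SD, n = 2) and Slc26a2 at 47.8 ± 2.35. Csgalnact1, which starts the chondroitin chain, followed at 44.3 ± 3.91, then Xylt1 at 39.0 ± 2.46, the chondroitin 4-O-sulfotransferase gene Chst11 at 28.4 ± 0.734 and the chondroitin synthase gene Chsy1 at 28.3 ± 0.346 CPM per kb. Chst11 and Chsy1 did not differ beyond their spread. At the low end stood Chst15 at 0.36, Chst3 at 0.301, Has3 at 0.136 and Has1 at 0.032 CPM per kb. With principal transcript lengths in place of the deposited lengths, 8 of the 10 highest members stayed among the 10 highest, and Papss2 stood at 258 and Slc26a2 at 75.7 CPM per kb.

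**Figure D1:**
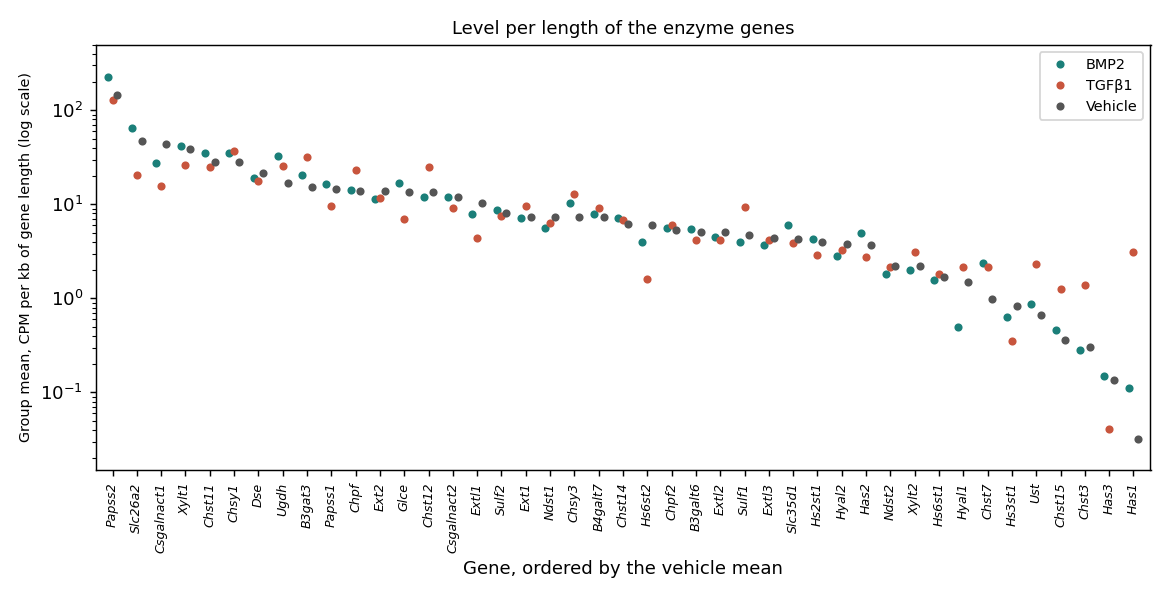
Group mean level of the 43 genes in CPM per kb of gene length (log scale) with BMP2, TGFβ1 and vehicle, ordered by the vehicle mean from Papss2 to Has1. The TGFβ1 point lies furthest from the vehicle point for Has1, Chst3, Hs6st2, Chst15 and Ust.

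TGFβ1 against vehicle is taken first. Of the 43 genes 13 rose and 9 fell, so 51.2% passed the threshold of adjusted p under 0.05 in edgeR. Of all tested genes 56.2% passed it, 30.4% higher and 25.8% lower. The members' share is near that background and is no result about them. The median log2 fold change of the members was −0.10, beside −0.02 over all tested genes. The 13 include the hyaluronan synthase gene Has1, which only its TGFβ1 libraries brought past the filter, so that its call adds no support. The other rises were led by the chondroitin sulfotransferase genes Chst3, Chst15 and Ust, with log2FC 2.21, 1.83 and 1.78. The falls were led by the heparan sulfotransferase gene Hs6st2, by Csgalnact1, by the sulfate transporter gene Slc26a2 and by the heparan gene Extl1, with log2FC −1.90, −1.50, −1.21 and −1.21. Under the length offset the members split 13 to 7, or 46.5%, beside 48.8% of all tested genes. Xylt1, Csgalnact2 and Hs2st1 no longer passed with it, and Ext2 did.

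BMP2 moved fewer of them. Of the 43 genes 6 rose and 4 fell, which is 23.3%, beside 11.5% of all tested genes (5.33% higher and 6.15% lower). The rises were those of 4 of the 5 supply genes (Ugdh, Papss2, Slc35d1 and Slc26a2), of Chst7 and of the chondroitin synthase gene Chsy3, and the falls those of Hyal1, Csgalnact1, Hs6st2 and Ndst1. The median was 0.11 over the members and 0.00 over all tested genes. These calls rest on few libraries. With the replicate number as a block 5 of the 10 passed, and Papss2, Slc26a2, Slc35d1, Chsy3 and Ndst1 did not. The count of 10 was 3 without vehicle replicate 1 (Ugdh, Chst7 and Hyal1), 2 without vehicle replicate 2 (Ugdh and Csgalnact1), 4 without BMP2 replicate 3 and 6 without BMP2 replicate 2. Without BMP2 replicate 1 it was again 10, with Ext2 and Has2 in place of Chsy3 and Slc35d1. Ugdh alone among the 10 passed without each of the 7 libraries in turn.

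The third comparison sets the ligands against each other. Of the 43, 15 were higher and 11 were lower with BMP2 than with TGFβ1, or 60.5%, beside 61.4% of all tested genes (28.1% higher and 33.3% lower), again a share near the background. All 5 supply genes were higher with BMP2, and Chst3, Hyal1, Chst15, Ust, Sulf1 and Chst12 were lower with a log2FC below −1. The 11 also include Has1, which only its TGFβ1 libraries brought past the filter, so that its call adds no support here either. The median was 0.07 over the members and −0.02 over all tested genes. Under the length offset 9 were higher and 12 lower, or 48.8%, beside 55.1% of all tested genes. Xylt1, B3gat3, Csgalnact2, Chst11, Hs2st1, Ugdh and Has3 no longer passed with it, and Chsy3 and Ndst1 did, both lower with BMP2. The 3 comparisons share libraries, and the first and second share both vehicle libraries, so they are not independent.

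**Figure D2:**
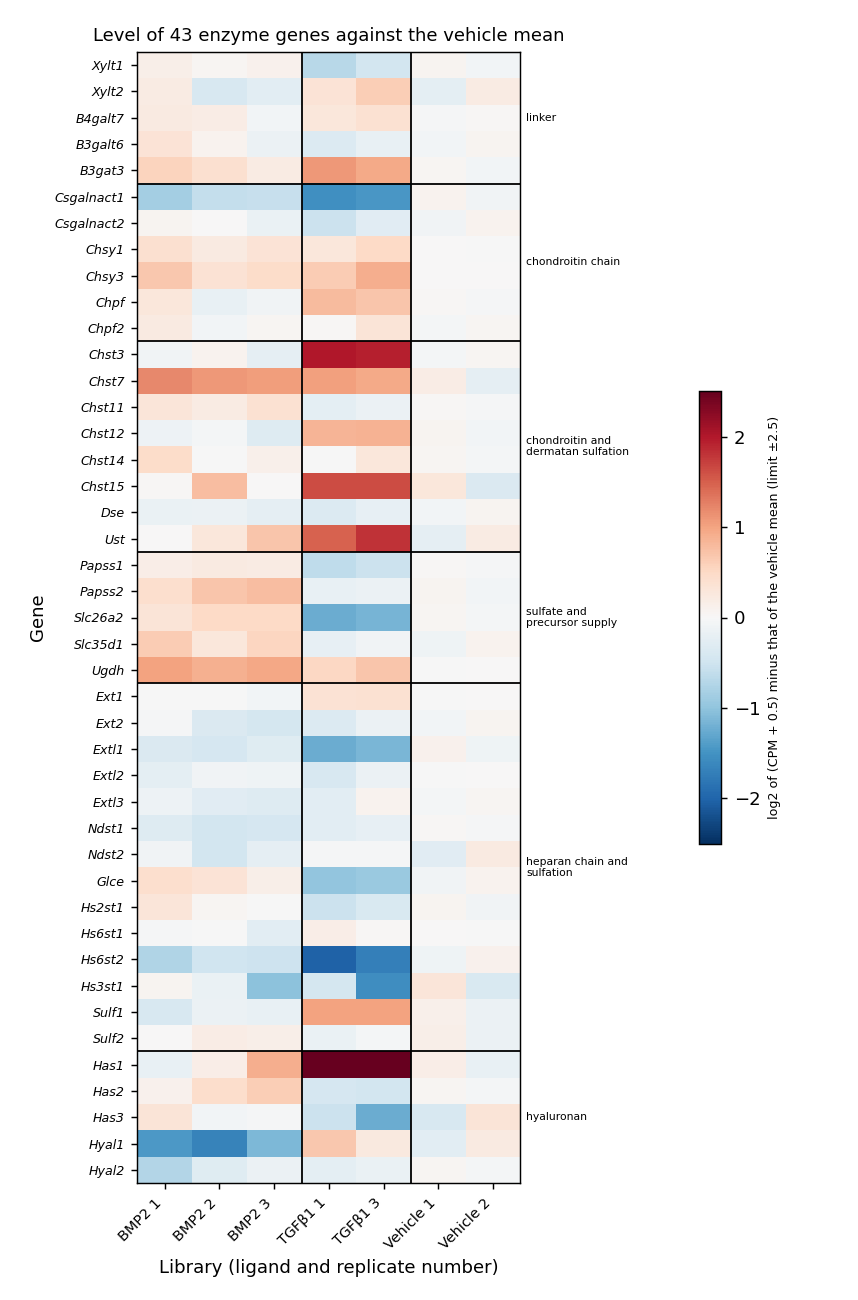
Level of each of the 43 genes (rows, by step) in each library (columns) as the log2 of CPM plus 0.5 minus that of the vehicle mean, red above and blue below, with colours limited at ±2.5. The TGFβ1 columns are red for Chst3, Chst15, Ust, Sulf1 and Has1 and blue for Csgalnact1, Slc26a2, Extl1, Glce and Hs6st2, and the BMP2 columns are red for Chst7 and Ugdh and blue for Hyal1.

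**Figure D3:**
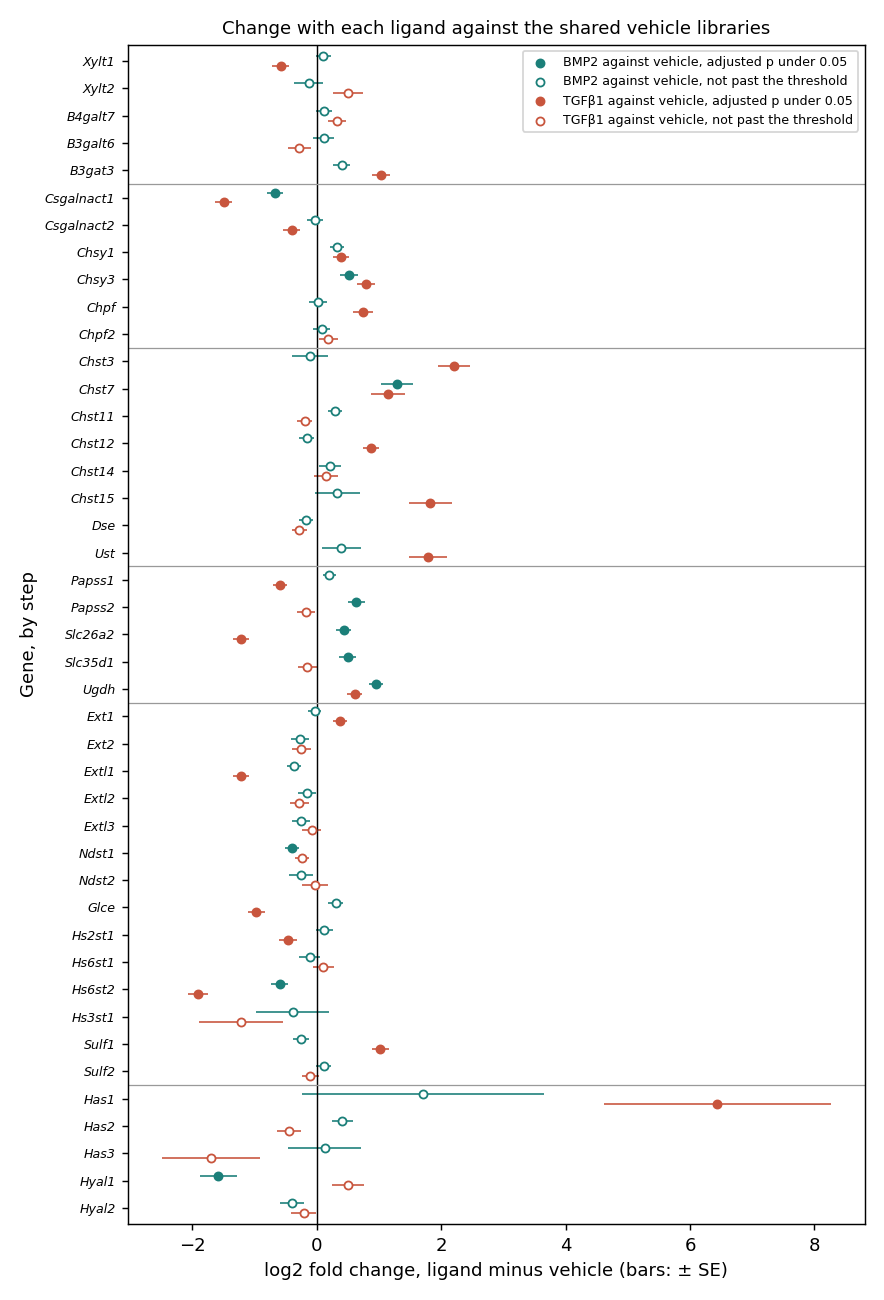
Log2 fold change with its standard error for BMP2 against vehicle and TGFβ1 against vehicle, gene by gene in the order of the steps; filled points passed the threshold. Among the 5 supply genes the BMP2 points are all above 0, from 0.20 to 0.96, and the TGFβ1 points run from −1.21 to 0.61; the fitted value of Has1 rests on 1 vehicle count.

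Promoter windows from RefSeq (GRCm38.p6), of 250 bases before a gene's start to 50 after it, were found for 33 of the 43 genes, 41 windows in all. They were searched on both strands for CAGACA, a SMAD3-type element, GGCGCC, a GC-rich element bound by BMP-activated SMADs, TGANTCA, the AP-1 element, and ACAAAG, a SOX-type element. GGCGCC and TGANTCA read the same on both strands, and none contains another. CAGACA was in 17.1% of the member windows, against 21% of all 32851 windows, and GGCGCC was in 12.2%, against 11.9%. TGANTCA and ACAAAG were in 2.44% and 4.88% of the member windows, against 7.81% and 18.7% of all. The windows of 4 genes whose levels the results turn on are shown with matches in capitals; the windows and the motifs were chosen with values in view, and a match is a description and not a site. They are those of Has1, which was raised with TGFβ1 (chr17:17855139-17855438, minus strand), of Chst3, likewise (chr10:60219211-60219510, minus strand), of the upstream start of Papss2, raised with BMP2 (chr19:32595465-32595764, plus strand), and of a start of Hs6st2, lower with both ligands (chrX:51680428-51680727, minus strand).
Has1: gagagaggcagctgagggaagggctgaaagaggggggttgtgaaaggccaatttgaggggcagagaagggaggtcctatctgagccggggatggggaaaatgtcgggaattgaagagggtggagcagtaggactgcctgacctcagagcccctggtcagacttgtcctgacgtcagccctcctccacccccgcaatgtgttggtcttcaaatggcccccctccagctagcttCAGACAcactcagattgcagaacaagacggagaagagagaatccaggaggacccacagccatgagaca
Chst3: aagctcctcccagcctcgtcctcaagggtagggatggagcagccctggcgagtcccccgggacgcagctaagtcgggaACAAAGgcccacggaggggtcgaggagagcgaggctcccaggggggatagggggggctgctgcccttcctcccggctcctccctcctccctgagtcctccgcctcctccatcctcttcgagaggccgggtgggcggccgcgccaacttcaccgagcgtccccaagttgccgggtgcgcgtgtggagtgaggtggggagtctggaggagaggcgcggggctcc
Papss2: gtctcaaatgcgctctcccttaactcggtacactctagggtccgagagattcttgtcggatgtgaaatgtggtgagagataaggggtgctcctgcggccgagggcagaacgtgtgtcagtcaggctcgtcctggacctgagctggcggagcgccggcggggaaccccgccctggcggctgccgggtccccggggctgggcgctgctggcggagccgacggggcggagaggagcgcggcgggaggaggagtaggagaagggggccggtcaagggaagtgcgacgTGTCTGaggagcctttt
Hs6st2: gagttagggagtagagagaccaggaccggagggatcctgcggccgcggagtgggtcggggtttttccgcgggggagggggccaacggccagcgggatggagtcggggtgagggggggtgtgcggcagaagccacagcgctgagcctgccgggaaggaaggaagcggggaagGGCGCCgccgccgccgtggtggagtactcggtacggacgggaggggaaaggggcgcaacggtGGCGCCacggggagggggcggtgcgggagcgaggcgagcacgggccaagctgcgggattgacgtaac
The Has1 window holds CAGACA once, from position −18 counted from the start. The Chst3 window holds ACAAAG once, from −172. The Papss2 window holds the reverse complement of CAGACA once, from position 34 after the start, and the Hs6st2 window holds GGCGCC from −79 and again from −17. No match for the other motifs is in these 4 windows. Papss2 and Hs6st2 each have another window (chr19:32619755-32620054 and chrX:51681553-51681852). These hold no match for any of the 4 motifs and are not shown.

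The linker is the same for chondroitin and heparan. Xylt1 (chromosome 7, 117380979 to 117673580, mm10), whose product adds the first xylose, had 419, 389 and 407 CPM with BMP2, 232 and 273 CPM with TGFβ1 and 393 and 359.7 CPM with vehicle. Both TGFβ1 libraries lay below the other 5, and BMP2 and vehicle overlapped. Xylt1 fell with TGFβ1 at log2FC −0.58 (SE 0.13, adjusted p = 0.0039), but the value was log2FC −0.07 (adjusted p = 0.673) with the length offset; its transcript of 9020 nt is the longest of the members. BMP2 against TGFβ1 gave log2FC 0.68 (SE 0.12, adjusted p = 0.000706), and log2FC 0.28 (adjusted p = 0.0689) with the offset.

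Xylt2, which encodes the other xylosyltransferase, had 10.0, 6.50 and 7.15 CPM with BMP2, 11.2 and 13.7 CPM with TGFβ1 and 7.22 and 10.2 CPM with vehicle. It was lower with BMP2 than with TGFβ1, at log2FC −0.63 (SE 0.21, adjusted p = 0.0239), and no longer passed without TGFβ1 replicate 3 (−0.48), BMP2 replicate 2 (−0.53) or BMP2 replicate 3 (−0.56). Its TGFβ1 value of log2FC 0.51 did not pass (adjusted p = 0.0961), and did at 0.51 without BMP2 replicate 1. Xylt1 made up 94.5, 96.1 and 95.9 percent of the CPM per kb of both xylosyltransferase genes with BMP2, 89.5 and 89.2 percent with TGFβ1 and 95.7 and 93.6 percent with vehicle.

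B3gat3, whose product adds the glucuronic acid that completes the linker, had 36.8, 32.8 and 28.7 CPM with BMP2, 52.9 and 48.6 CPM with TGFβ1 and 25.8 and 23.8 CPM with vehicle. The 3 groups did not overlap, with TGFβ1 highest and vehicle lowest. It rose with TGFβ1 at log2FC 1.03 (SE 0.14, adjusted p = 0.000154), and at log2FC 0.57 (adjusted p = 0.00256) with the offset for its short transcript of 1603 nt. BMP2 gave log2FC 0.40 (adjusted p = 0.0868), and log2FC 0.43 (adjusted p = 0.0343) with the offset. BMP2 against TGFβ1 was log2FC −0.63 (SE 0.13, adjusted p = 0.00131), and log2FC −0.14 (adjusted p = 0.282) with the offset. The galactosyltransferase genes of the linker, B4galt7 and B3galt6, passed in none of the 3 comparisons, with log2FC between −0.28 and 0.39; B3galt6 was higher with BMP2 than with TGFβ1 without BMP2 replicate 3 (0.51), without the filter on low counts (0.45) and with DESeq2 size factors (0.41).

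The chondroitin chain is started by the products of Csgalnact1 and Csgalnact2. Csgalnact1 (chromosome 8, 68356781 to 68735146) had 126, 148 and 152 CPM with BMP2, 78.0 and 82.0 CPM with TGFβ1 and 239.8 and 212 CPM with vehicle. Vehicle lay highest, BMP2 between and TGFβ1 lowest, with no overlap between any pair of groups. It fell with TGFβ1 at log2FC −1.50 (SE 0.14, adjusted p = 8.04e-06) and with BMP2 at log2FC −0.67 (SE 0.12, adjusted p = 0.00615), which without vehicle replicate 1 was log2FC −0.57 (adjusted p = 0.0937). BMP2 was above TGFβ1 at log2FC 0.83 (SE 0.12, adjusted p = 0.000247).

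Csgalnact2 had 69.0, 66.3 and 58.8 CPM with BMP2, 45.3 and 54.2 CPM with TGFβ1 and 61.6 and 69.8 CPM with vehicle. Its fall with TGFβ1, log2FC −0.40 (SE 0.14, adjusted p = 0.0303), did not hold without TGFβ1 replicate 1 (−0.28), without vehicle replicate 2 (−0.31), in DESeq2 (−0.41) or with the length offset (−0.05). Against TGFβ1, BMP2 gave log2FC 0.38 (SE 0.13, adjusted p = 0.0244), which was 0.25 without TGFβ1 replicate 1, 0.36 without BMP2 replicate 2 and −0.01 with the offset, none of which passed.

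The chain is extended by complexes of the products of Chsy1, Chsy3, Chpf and Chpf2. Chsy1 had 156, 138 and 150.0 CPM with BMP2, 143 and 168 CPM with TGFβ1 and 119 and 117 CPM with vehicle, and both ligands lay above vehicle. It rose with TGFβ1 at log2FC 0.40 (SE 0.13, adjusted p = 0.0242), a small change that did not pass without TGFβ1 replicate 3 (0.27), vehicle replicate 1 (0.37), vehicle replicate 2 (0.38) or the filter on low counts (0.35). The BMP2 value of log2FC 0.33 did not pass (adjusted p = 0.113).

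Chsy3 had 34.5, 27.7 and 29.9 CPM with BMP2, 33.9 and 40.8 CPM with TGFβ1 and 21.5 and 21.5 CPM with vehicle, with every treated library above vehicle. It rose with TGFβ1 at log2FC 0.79 (SE 0.15, adjusted p = 0.00118) and with BMP2 at log2FC 0.52 (SE 0.14, adjusted p = 0.0409). The BMP2 call was lost without any one of the 3 BMP2 or the 2 vehicle libraries, at values from 0.42 to 0.58, and in DESeq2 (0.54). Against TGFβ1, BMP2 gave log2FC −0.28 (SE 0.13, adjusted p = 0.0894), and passed without BMP2 replicate 1 (−0.37), without TGFβ1 replicate 1 (−0.40) and with the length offset (−0.43). Chpf had 65.5, 47.2 and 50.4 CPM with BMP2, 92.5 and 86.7 CPM with TGFβ1 and 54.4 and 52.5 CPM with vehicle; it rose with TGFβ1 at log2FC 0.74 (SE 0.16, adjusted p = 0.0023), and BMP2 lay below TGFβ1 at log2FC −0.72 (SE 0.14, adjusted p = 0.00118). Chpf2 passed in no comparison, with log2FC from −0.11 to 0.19, and 44.1% of its exon bases overlap other genes. The summed level of the 6 chain genes stayed within a narrow range, at 109.8, 101 and 105 CPM per kb with BMP2, 98.8 and 109 with TGFβ1 and 114 and 109 with vehicle.

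Chondroitin is sulfated mainly at position 4 of the amino sugar, by the products of Chst11 and Chst12, and at position 6, by those of Chst3 and Chst7. Chst3 (chromosome 10, 60181532 to 60219260) had 1.80, 2.12 and 1.60 CPM with BMP2, 9.27 and 8.93 CPM with TGFβ1 and 1.87 and 2.03 CPM with vehicle. The TGFβ1 libraries lay far above the other 5, which overlapped. Chst3 rose with TGFβ1 at log2FC 2.21 (SE 0.26, adjusted p = 2.91e-05), did not pass with BMP2 at log2FC −0.10, and was lower with BMP2 than with TGFβ1 at log2FC −2.32 (SE 0.22, adjusted p = 4.41e-06). The log2 fold change with TGFβ1 was 2.46 with the length offset.

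Chst7 had 5.66, 5.17 and 4.99 CPM with BMP2, 4.93 and 4.66 CPM with TGFβ1 and 2.54 and 1.79 CPM with vehicle, so that both ligands lay above vehicle. It rose with TGFβ1 at log2FC 1.15 (SE 0.27, adjusted p = 0.00376) and with BMP2 at log2FC 1.29 (SE 0.26, adjusted p = 0.00811), and the BMP2 call was lost without vehicle replicate 2 (1.05). Its counts in vehicle were 19 and 15. Chst7 did not differ between the ligands beyond their spread in the fit, at log2FC 0.14 (SE 0.20, adjusted p = 0.57).

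Chst11, the more abundant 4-O-sulfotransferase gene, had 194, 182 and 203 CPM with BMP2, 132 and 143 CPM with TGFβ1 and 159.8 and 154 CPM with vehicle. Its values against vehicle were log2FC −0.19 with TGFβ1 (adjusted p = 0.2) and log2FC 0.30 with BMP2 (adjusted p = 0.122), and none of the groups overlapped; with the length offset the TGFβ1 value was of the other sign, log2FC 0.13 (adjusted p = 0.384). BMP2 lay above TGFβ1 at log2FC 0.49 (SE 0.11, adjusted p = 0.0031), and at log2FC 0.22 (adjusted p = 0.107) with the length offset. Chst12 had 29.3, 30.9 and 25.5 CPM with BMP2, 58.2 and 58.7 CPM with TGFβ1 and 33.3 and 30.5 CPM with vehicle; it rose with TGFβ1 at log2FC 0.87 (SE 0.13, adjusted p = 0.000233) and was lower with BMP2 than with TGFβ1 at log2FC −1.03 (SE 0.12, adjusted p = 2.28e-05). As a share of the summed CPM per kb of these 4 genes, the 6-O-sulfotransferases Chst3 and Chst7 made up 5.64, 5.49 and 5.00 percent with BMP2, 7.02 and 6.44 percent with TGFβ1 and 3.24 and 2.69 percent with vehicle. Every treated library was above both vehicle libraries, and Chst11 and Chst12 held most of the total in each library.

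Chst15 and Ust encode enzymes that add a further sulfate to units already sulfated or to the uronic acid. Chst15 had 2.49, 4.51 and 2.44 CPM with BMP2, 8.61 and 8.55 CPM with TGFβ1 and 3.08 and 1.79 CPM with vehicle. Ust had 3.09, 3.85 and 5.27 CPM with BMP2, 9.34 and 12.0 CPM with TGFβ1 and 2.54 and 3.59 CPM with vehicle. For both, the TGFβ1 libraries lay above all others, and BMP2 and vehicle overlapped. They rose with TGFβ1 at log2FC 1.83 (SE 0.35, adjusted p = 0.000908) and log2FC 1.78 (SE 0.30, adjusted p = 0.000457), and were lower with BMP2 than with TGFβ1 at log2FC −1.49 (SE 0.28, adjusted p = 0.000747) and log2FC −1.39 (SE 0.24, adjusted p = 0.000508). In Chst15, 17.9% of exon bases overlap Gm10584, which had no count in BMP2 or vehicle and 0.147 CPM in 1 TGFβ1 library. Dermatan is made from chondroitin by the epimerase gene Dse and the 4-O-sulfotransferase gene Chst14. Neither passed in any comparison, with log2FC between −0.28 and 0.22; Dse did with TGFβ1 without TGFβ1 replicate 3 (−0.35) and without BMP2 replicate 1 (−0.28), and was log2FC −0.01 (adjusted p = 0.927) with the length offset. In all, 5 of the 8 sulfation genes rose with TGFβ1 and 0 fell, and 1 rose and 0 fell with BMP2, with the same counts under the length offset. These shares of 62.5% and 12.5% are near the 56.2% and 11.5% of all tested genes. With the length offset 48.8% and 12.7% of all tested genes passed.

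**Figure D4:**
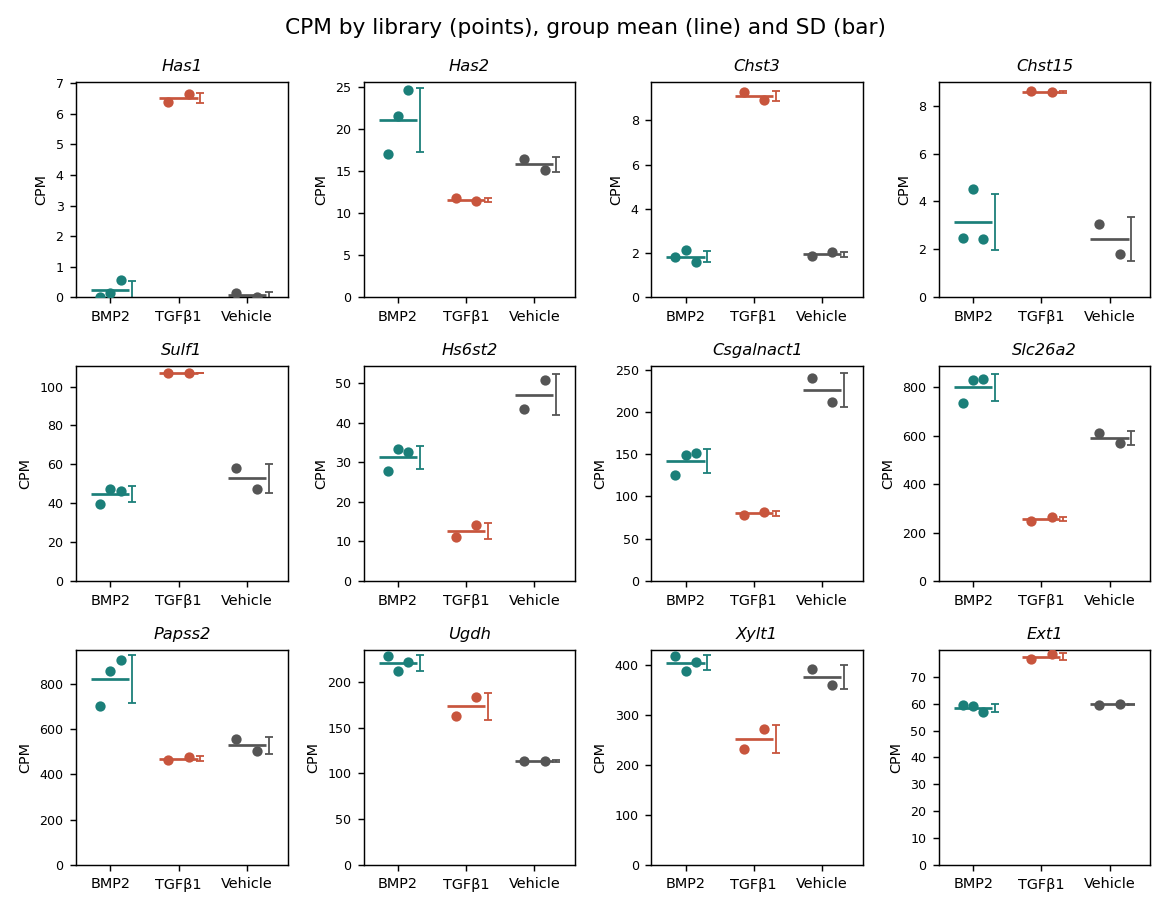
CPM by library for 12 genes, with the group mean (line) and SD (bar), on axes from 0. TGFβ1 stands above both other groups for Has1, Chst3, Chst15, Sulf1 and Ext1 and below them for Has2, Hs6st2, Csgalnact1, Slc26a2, Papss2 and Xylt1, and BMP2 stands highest for Papss2, Slc26a2 and Ugdh.

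Of the 5 genes for the supply of sulfate and sugar donors 4 rose with BMP2 (80%, beside 11.5% of all tested genes called), and 1 rose and 2 fell with TGFβ1 (60%, near the 56.2% of all tested genes). Slc26a2 (chromosome 18, 61192919 to 61211612), which carries sulfate into the cell, had 734, 829.7 and 837 CPM with BMP2, 249 and 263 CPM with TGFβ1 and 612 and 571 CPM with vehicle. The groups were fully apart, BMP2 highest and TGFβ1 lowest. It fell with TGFβ1 at log2FC −1.21 (SE 0.13, adjusted p = 2.59e-05), or log2FC −0.62 (adjusted p = 0.00126) with the offset for its transcript of 7814 nt. With BMP2 it rose at log2FC 0.44 (SE 0.12, adjusted p = 0.0407); this did not pass without BMP2 replicate 2 (0.41), BMP2 replicate 3 (0.40), vehicle replicate 1 (0.49) or vehicle replicate 2 (0.39). BMP2 lay above TGFβ1 at log2FC 1.65 (SE 0.12, adjusted p = 1.24e-06), and at log2FC 1.09 (adjusted p = 8.69e-06) with the offset.

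Papss2 (chromosome 19, 32595790 to 32667187) and Papss1 encode the synthases that turn sulfate into PAPS. Papss2 had 703, 856 and 906 CPM with BMP2, 463 and 478 CPM with TGFβ1 and 555 and 503 CPM with vehicle. All BMP2 libraries lay above vehicle, and TGFβ1 lay just below it. The gene rose with BMP2 at log2FC 0.64 (SE 0.14, adjusted p = 0.014), and did not pass without BMP2 replicate 2 (0.60), BMP2 replicate 3 (0.56), vehicle replicate 1 (0.71) or vehicle replicate 2 (0.57). Its TGFβ1 value of log2FC −0.17 did not pass (adjusted p = 0.356), and was log2FC −0.33 (adjusted p = 0.0909) with the length offset. BMP2 against TGFβ1 gave log2FC 0.80 (SE 0.14, adjusted p = 0.000509).

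Papss1 had 49.8, 51.4 and 51.4 CPM with BMP2, 28.3 and 30.4 CPM with TGFβ1 and 45.3 and 43.1 CPM with vehicle. It fell with TGFβ1 at log2FC −0.59 (SE 0.12, adjusted p = 0.00144), did not pass with BMP2 at log2FC 0.20, and differed between BMP2 and TGFβ1 at log2FC 0.79 (SE 0.10, adjusted p = 8.71e-05). Papss2 made up between 90.7% and 93.7% of the CPM per kb of both synthases in every library.

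Ugdh, whose product oxidises UDP-glucose to the UDP-glucuronic acid that all these chains need, had 229, 212 and 221 CPM with BMP2, 163 and 184 CPM with TGFβ1 and 113 and 114 CPM with vehicle. The order was BMP2, TGFβ1, vehicle, with no overlap. It rose with BMP2 at log2FC 0.96 (SE 0.11, adjusted p = 0.000498) and with TGFβ1 at log2FC 0.61 (SE 0.12, adjusted p = 0.00178). The difference between the ligands of log2FC 0.35 (SE 0.11, adjusted p = 0.0198) was lost without TGFβ1 replicate 1 (0.27), without BMP2 replicate 3 (0.35) and with the length offset (0.25). Slc35d1, whose product carries nucleotide sugars for chondroitin into the secretory pathway, had 56.9, 44.7 and 53.0 CPM with BMP2, 31.9 and 34.2 CPM with TGFβ1 and 34.1 and 39.0 CPM with vehicle. It rose with BMP2 at log2FC 0.50 (SE 0.13, adjusted p = 0.0369). The call was lost without BMP2 replicate 1 (0.42), BMP2 replicate 3 (0.48), vehicle replicate 1 (0.41) or vehicle replicate 2 (0.60). Against TGFβ1 it was higher with BMP2 at log2FC 0.65 (SE 0.13, adjusted p = 0.00152), and at log2FC 0.40 (adjusted p = 0.0219) with the offset. Summed over the 5 genes, the step stood at 309.7, 356 and 373 CPM per kb with BMP2, 185 and 194 with TGFβ1 and 238 and 220.0 with vehicle, and most of that sum is Papss2.

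The heparan chain is polymerised by the products of Ext1 and Ext2. Ext1 had 59.5, 59.3 and 56.8 CPM with BMP2, 76.6 and 78.5 CPM with TGFβ1 and 59.6 and 59.9 CPM with vehicle. Both TGFβ1 libraries lay above all others. It rose with TGFβ1 at log2FC 0.38 (SE 0.11, adjusted p = 0.0141), and at log2FC 0.96 (adjusted p = 4.73e-05) with the offset for its transcript of 7663 nt. Without vehicle replicate 1 (0.33), vehicle replicate 2 (0.38) or the filter on low counts (0.33) the rise did not pass. BMP2 against TGFβ1 gave log2FC −0.41 (SE 0.10, adjusted p = 0.00453), and log2FC −0.95 (adjusted p = 1.37e-05) with the offset. Ext2 had 98.3, 77.8 and 74.5 CPM with BMP2, 79.5 and 90.7 CPM with TGFβ1 and 96.5 and 105 CPM with vehicle and passed in no comparison; its TGFβ1 value was log2FC −0.24, and log2FC −0.41 (adjusted p = 0.0335) with the offset, and its BMP2 value of log2FC −0.27 was log2FC −0.40 (adjusted p = 0.042) without BMP2 replicate 1.

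Extl1, of the same gene family, had 34.3, 33.0 and 36.0 CPM with BMP2, 18.5 and 19.9 CPM with TGFβ1 and 47.7 and 41.1 CPM with vehicle. It fell with TGFβ1 at log2FC −1.21 (SE 0.13, adjusted p = 2.3e-05), did not pass with BMP2 at log2FC −0.36, and was higher with BMP2 than with TGFβ1 at log2FC 0.85 (SE 0.12, adjusted p = 0.000132). Extl2 and Extl3, which encodes the enzyme that starts the heparan chain, passed in no comparison, with log2FC between −0.28 and 0.12.

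Ndst1 encodes the enzyme that opens heparan to further sulfation by replacing acetyl with sulfate groups. It had 36.0, 32.5 and 33.5 CPM with BMP2, 37.4 and 38.8 CPM with TGFβ1 and 46.0 and 43.8 CPM with vehicle, with vehicle above both ligands. It fell with BMP2 at log2FC −0.40 (SE 0.11, adjusted p = 0.0377), a call that was lost without BMP2 replicate 2 (−0.37), BMP2 replicate 3 (−0.39), vehicle replicate 1 (−0.36), vehicle replicate 2 (−0.43) or the filter (−0.38), in DESeq2 (−0.38) and with the length offset (−0.29). Against TGFβ1, BMP2 gave log2FC −0.16 (adjusted p = 0.207), and log2FC −0.32 (adjusted p = 0.0212) with the offset. Ndst2 passed in no comparison, with log2FC from −0.25 to −0.03.

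Glce and Hs2st1 act next, turning glucuronic into iduronic acid and sulfating it. Glce had 125, 119 and 103 CPM with BMP2, 46.9 and 48.5 CPM with TGFβ1 and 88.0 and 98.6 CPM with vehicle. It fell with TGFβ1 at log2FC −0.97 (SE 0.13, adjusted p = 0.000145), and at log2FC −0.60 (adjusted p = 0.00428) with the offset. It did not pass with BMP2 at log2FC 0.31 and was higher with BMP2 than with TGFβ1 at log2FC 1.28 (SE 0.12, adjusted p = 8.65e-06). Hs2st1 had 40.4, 33.7 and 32.6 CPM with BMP2, 22.5 and 25.0 CPM with TGFβ1 and 34.5 and 31.0 CPM with vehicle. Its fall with TGFβ1, log2FC −0.46 (SE 0.15, adjusted p = 0.0201), was not past the threshold without TGFβ1 replicate 1 (−0.39) or vehicle replicate 1 (−0.42), and was log2FC 0.01 (adjusted p = 0.982) with the length offset. BMP2 against TGFβ1 gave log2FC 0.59 (SE 0.13, adjusted p = 0.00292), and log2FC 0.15 (adjusted p = 0.38) with the offset.

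Heparan is sulfated at position 6 by the products of Hs6st1 and Hs6st2. Hs6st2 (chromosome X, 51387212 to 51681856) had 27.9, 33.3 and 32.5 CPM with BMP2, 11.2 and 14.1 CPM with TGFβ1 and 43.5 and 50.7 CPM with vehicle. Vehicle lay highest and TGFβ1 lowest, with no overlap. It fell with TGFβ1 at log2FC −1.90 (SE 0.16, adjusted p = 3.85e-06) and with BMP2 at log2FC −0.60 (SE 0.14, adjusted p = 0.0192), and the BMP2 call was lost without BMP2 replicate 3 (−0.63), vehicle replicate 1 (−0.70) or vehicle replicate 2 (−0.48). BMP2 was above TGFβ1 at log2FC 1.30 (SE 0.15, adjusted p = 2.98e-05). Hs6st1 had 9.18, 9.28 and 7.71 CPM with BMP2, 10.7 and 9.62 CPM with TGFβ1 and 9.49 and 9.33 CPM with vehicle and passed in no comparison, with log2FC from −0.22 to 0.11. The 3-O-sulfotransferase gene Hs3st1 stood at 4 to 23 counts per library and passed in no comparison; its TGFβ1 value of log2FC −1.22 was log2FC −2.54 (adjusted p = 0.0331) without TGFβ1 replicate 1 and log2FC −1.26 (adjusted p = 0.0366) without the filter on low counts.

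Sulf1 and Sulf2 encode extracellular sulfatases that remove 6-O-sulfates from heparan. Sulf1 (chromosome 1, 12692277 to 12861192) had 39.8, 47.3 and 46.5 CPM with BMP2, 107 and 107 CPM with TGFβ1 and 58.0 and 47.5 CPM with vehicle. The TGFβ1 libraries stood above the rest, and all BMP2 libraries lay below both vehicle libraries. Sulf1 rose with TGFβ1 at log2FC 1.02 (SE 0.14, adjusted p = 0.000129), did not pass with BMP2 at log2FC −0.24, and was lower with BMP2 than with TGFβ1 at log2FC −1.27 (SE 0.12, adjusted p = 8.32e-06). Sulf2 had 47.3, 53.3 and 51.7 CPM with BMP2, 42.1 and 45.3 CPM with TGFβ1 and 51.8 and 42.2 CPM with vehicle and passed in no comparison, with log2FC from −0.10 to 0.22. Sulf1 made up 30.3, 31.4 and 31.6 percent of the CPM per kb of both sulfatase genes with BMP2, 56.7 and 54.9 percent with TGFβ1 and 36.6 and 36.7 percent with vehicle. These shares depend on the length used. Per kb of principal transcript, Sulf1 and Sulf2 averaged 7.955 and 11.08 CPM with BMP2, 19.12 and 9.537 with TGFβ1 and 9.425 and 10.26 with vehicle. With TGFβ1, then, a gene for adding 6-O-sulfate (Hs6st2) fell and a gene for removing it (Sulf1) rose. In the whole heparan step 2 of 14 genes rose and 4 fell with TGFβ1, and 0 rose and 2 fell with BMP2. These shares of 42.9% and 14.3% stand beside 56.2% and 11.5% of all tested genes.

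**Figure D5:**
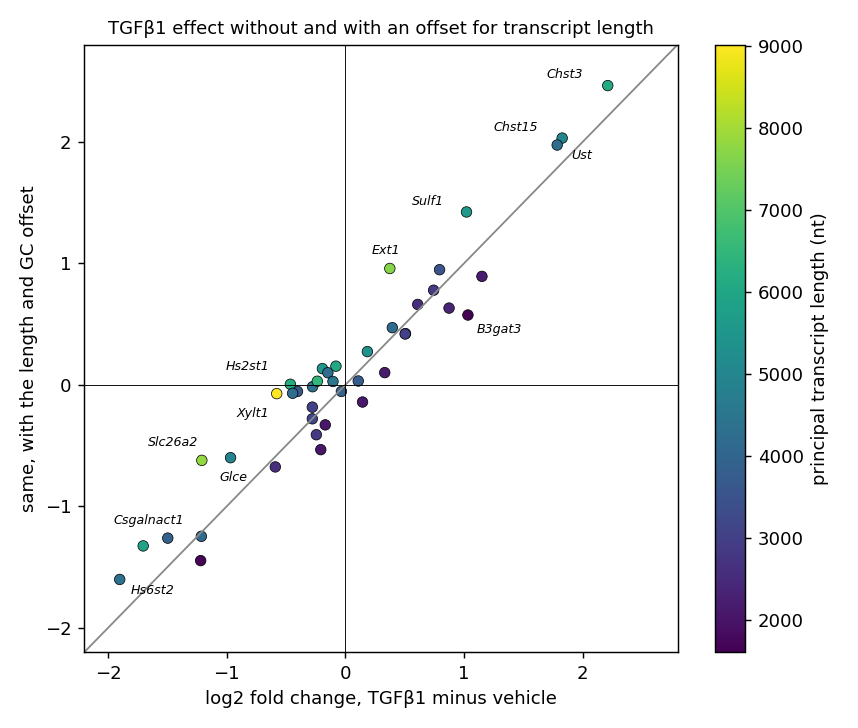
Log2 fold change of TGFβ1 against vehicle without (horizontal) and with (vertical) the offset for transcript length and GC content, coloured by principal transcript length in nt; the grey line marks equal values, and Has1 lies outside the axes. Xylt1, Slc26a2, Ext1 and Sulf1, with transcripts above 5000 nt, lie above the line, and the short gene B3gat3 lies below it.

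Hyaluronan is made by 3 synthases, encoded by Has1, Has2 and Has3. Has1 (chromosome 17, 17843323 to 17855205) had 0, 0.133 and 0.564 CPM with BMP2, 6.40 and 6.64 CPM with TGFβ1 and 0.134 and 0 CPM with vehicle. It was close to absent in 5 libraries and present in both TGFβ1 libraries. The ratio of its level with TGFβ1 to that with vehicle was 103, with a 95% counting interval of 18.3 to 4102, since vehicle holds 1 count in all. The ratio of BMP2 to TGFβ1 was 0.0360 (95% counting interval 0.0143 to 0.0758). No adjusted p is given for these, because Has1 was tested only on account of its TGFβ1 libraries. The ratio of BMP2 to vehicle, 3.72 on 7 counts and 1, had an interval of 0.478 to 168. These intervals (exact Clopper-Pearson, on summed counts) cover counting error only.

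Has2, the main synthase gene of vehicle-treated cells, had 17.1, 21.6 and 24.6 CPM with BMP2, 11.8 and 11.4 CPM with TGFβ1 and 16.4 and 15.2 CPM with vehicle. BMP2 lay above vehicle and TGFβ1 below it, without overlap. Neither ligand passed against vehicle, at log2FC −0.44 with TGFβ1 (adjusted p = 0.0637) and log2FC 0.41 with BMP2 (adjusted p = 0.152), and the difference between BMP2 and TGFβ1 did, at log2FC 0.86 (SE 0.16, adjusted p = 0.00109), or log2FC 0.45 (adjusted p = 0.0194) with the length offset. Without BMP2 replicate 1 both passed, at −0.44 for TGFβ1 and 0.55 for BMP2. The TGFβ1 value also passed with only the libraries compared (−0.44) and without the filter (−0.49), but was log2FC −0.07 (adjusted p = 0.749) with the length offset. Has2os, a gene on the other strand that shares 4.3% of the exon bases of Has2, had 2.4, 2.25 and 1.69 CPM with BMP2, 9.05 and 6.57 CPM with TGFβ1 and 3.61 and 2.99 CPM with vehicle. It rose with TGFβ1 at log2FC 1.25, and whether the counting used strand is not given in the sources.

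Has3 had 1.20, 0.795 and 0.847 CPM with BMP2, 0.441 and 0.0764 CPM with TGFβ1 and 0.535 and 1.20 CPM with vehicle, from 1 to 14 counts per library. It was higher with BMP2 than with TGFβ1 at log2FC 1.84 (SE 0.72, adjusted p = 0.0301), which did not pass without BMP2 replicate 1 (1.61), without TGFβ1 replicate 3 (1.11), in DESeq2 (1.89) or with the length offset (1.51), and was 3.46 without TGFβ1 replicate 1. Against vehicle it gave log2FC −1.70 with TGFβ1 (adjusted p = 0.0734), and log2FC −3.32 (adjusted p = 0.0269) without TGFβ1 replicate 1. In CPM per kb, Has2 made up 95.5, 96.4 and 93.5 percent of the 3 synthases with BMP2, 47.0 and 45.9 percent with TGFβ1 and 96.3 and 95.0 percent with vehicle. Has1 made up 51.8 and 53.9 percent with TGFβ1 and at most 4.34% in any other library.

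Hyal1 and Hyal2 encode hyaluronidases, which cut hyaluronan. Hyal1 had 1.80, 1.46 and 2.35 CPM with BMP2, 9.34 and 6.87 CPM with TGFβ1 and 4.68 and 6.70 CPM with vehicle, with BMP2 lowest and TGFβ1 highest and no overlap. It fell with BMP2 at log2FC −1.58 (SE 0.30, adjusted p = 0.00635), which without vehicle replicate 2 was log2FC −1.29 (adjusted p = 0.0944), and did not pass with TGFβ1 at log2FC 0.50. BMP2 lay below TGFβ1 at log2FC −2.09 (SE 0.28, adjusted p = 5.97e-05). Of its exon bases 51.9% overlap genes on the same strand, Hyal3 and Naa80. Hyal3 stayed under 1 CPM in every library. Naa80, in the table under its older name Nat6, had 4.46, 5.04 and 2.82 CPM with BMP2, 11.3 and 12.2 CPM with TGFβ1 and 6.55 and 5.74 CPM with vehicle. It was lower with BMP2 than with TGFβ1 as well (log2FC −1.54), so reads of Hyal1 and Naa80 may be shared. Against vehicle, Naa80 did not pass with BMP2 (log2FC −0.60, adjusted p = 0.162) and rose with TGFβ1 (log2FC 0.94, adjusted p = 0.0065). Hyal2 had 7.21, 9.94 and 11.1 CPM with BMP2, 10.4 and 11.0 CPM with TGFβ1 and 12.8 and 11.8 CPM with vehicle and passed in no comparison, with log2FC from −0.40 to −0.19; its TGFβ1 value of log2FC −0.21 was log2FC −0.53 (adjusted p = 0.0628) with the length offset.

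Other genes of the same pathways were read from 4 further lists. Of 14 genes for nucleotide sugar and PAPS supply, 5 rose and 2 fell with TGFβ1 (50%, beside 56.2% of all tested genes), and 3 rose and 1 fell with BMP2 (28.6%, beside 11.5%). Ugp2, which makes the UDP-glucose that UGDH oxidises, rose with BMP2 (log2FC 1.39, SE 0.11), and its value with TGFβ1 was log2FC −0.12. Gfpt2, of the hexosamine route to amino sugars, rose with BMP2 (log2FC 1.18, SE 0.11) and with TGFβ1 (log2FC 1.00, SE 0.12), and Pgm3, of the same route, fell with BMP2 (log2FC −0.78, SE 0.21), which did not pass without BMP2 replicate 2 (−0.69), BMP2 replicate 3 (−0.74) or vehicle replicate 2 (−0.40). Slc35b2, which encodes a PAPS transporter of the Golgi, rose with TGFβ1 (log2FC 1.15, SE 0.14) and gave log2FC 0.76 (adjusted p = 0.000598) with the length offset. Slc35b3, which encodes the other PAPS transporter, and Impad1, which encodes the phosphatase that clears the by-product of sulfation, fell with TGFβ1 (log2FC −0.57 and log2FC −0.53). Slc35b3 did not pass without TGFβ1 replicate 1 (−0.56), without vehicle replicate 1 (−0.58) or in DESeq2 (−0.58), and Impad1 gave log2FC 0.13 (adjusted p = 0.439) with the length offset. The count with TGFβ1 was 4 in place of 7 without TGFβ1 replicate 1 or vehicle replicate 1, and the count with BMP2 was 2 in place of 4 without vehicle replicate 2 and with the replicate number as a block.

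Of 12 further transferases and modifying enzymes 5 were tested, of which 1 rose and 2 fell with TGFβ1 (60%, near the 56.2% of all tested genes) and 0 passed with BMP2. Pxylp1, which removes the phosphate from the linker xylose, rose with TGFβ1 (log2FC 2.24, SE 0.21), and Fam20b, which adds it, fell (log2FC −1.20, SE 0.13), as did the 3-O-sulfotransferase gene Hs3st3a1 (log2FC −1.38, SE 0.52). Hs3st3a1 did not pass without BMP2 replicate 2 (−1.39), TGFβ1 replicate 1 (−1.07) or vehicle replicate 1 (−0.70), with only the libraries compared (−1.38) or in DESeq2 (−1.41). With BMP2, edgeR's count of 0 went with 3 of the 5 genes at an unadjusted p under 0.05, and DESeq2 also called 0; the count was 2 without the filter on low counts, 1 with only the libraries compared and 1 with the length offset. Of 16 tested genes of breakdown 4 rose and 4 fell with TGFβ1 (50%, near the 56.2%), and 1 rose and 5 fell with BMP2 (37.5%, beside 11.5%). Cemip, whose product is needed for hyaluronan breakdown, averaged 2.12 ± 0.374 CPM with BMP2, 35.3 ± 1.67 CPM with TGFβ1 and 12.0 ± 1.03 CPM with vehicle, a rise with TGFβ1 (log2FC 1.56, SE 0.16) and a fall with BMP2 (log2FC −2.49, SE 0.20). Hpse, which encodes the heparan-cutting heparanase, went the other way, with 6.08 ± 0.628 CPM with BMP2, 0.304 ± 0.326 CPM with TGFβ1 and 1.77 ± 0.14 CPM with vehicle; it rose with BMP2 (log2FC 1.78, SE 0.37) and fell with TGFβ1 (log2FC −2.51, SE 0.64). The rise of Hpse was lost on leaving out vehicle replicate 1 (1.86) or replicate 2 (1.70), and its fall was log2FC −4.37 without TGFβ1 replicate 3. The lysosomal genes Idua and Ids, which act on iduronic acid units, rose (log2FC 1.31, SE 0.15) and fell (log2FC −0.97, SE 0.14) with TGFβ1, and Ids gave log2FC −0.54 (adjusted p = 0.00413) with the length offset. Naglu, also lysosomal, fell with BMP2 (log2FC −0.99, SE 0.17). In place of 6 genes, BMP2 moved 2 on leaving out vehicle replicate 1, 3 on leaving out replicate 2 and 2 with the replicate number as a block.

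Among 19 tested core protein and link protein genes 6 rose and 7 fell with TGFβ1 (68.4%, beside 56.2% of all tested genes), and 7 rose and 5 fell with BMP2 (63.2%, beside 11.5%). The chondroitin-bearing versican gene Vcan (log2FC 3.24, SE 0.19) and the syndecan gene Sdc1 (log2FC 0.95, SE 0.17) led the rises with TGFβ1, and Hapln1, which ties aggrecan to hyaluronan, and the glypican gene Gpc3 the falls (log2FC −2.09, SE 0.15 and log2FC −1.97, SE 0.29). With BMP2 the glypican gene Gpc3 rose (log2FC 1.21, SE 0.21), and the falls were led by Tgfbr3, the betaglycan gene, and the decorin gene Dcn (log2FC −1.94, SE 0.15 and log2FC −1.35, SE 0.12). The 7 rises include another glypican gene, Gpc5, with 34, 24 and 16 counts with BMP2, 1 and 0 with TGFβ1 and 2 and 0 with vehicle. Only its BMP2 libraries brought it past the filter, so its call adds no support; the ratio of BMP2 to vehicle was 19.6, with a 95% counting interval of 5.25 to 165. In place of 12 genes, BMP2 moved 7 on leaving out vehicle replicate 1, 5 on leaving out replicate 2 and 6 with the replicate number as a block.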

How the data were processed

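The deposited table holds raw counts per gene name for the 7 libraries with 1 gene length per name. The submitters' processing notes name cutadapt, STAR 2.4.2a, Subread, featureCounts, DESeq2 and mm10, with no roles or order; no source used here states the annotation, the strand setting or how reads with several matches were counted. The whole numbers were used as the authors deposited them, with 6747997 to 18047765 counts per library, a range that sets the precision for low genes.

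Genes were filtered with filterByExpr, scaled with TMM and tested two-sided in edgeR 4.0.16 (R 4.3.3) by the quasi-likelihood test, with all 7 libraries in 1 fit, 3 contrasts and Benjamini-Hochberg adjustment over 13367 genes at a threshold of 0.05. The residual degrees of freedom were 4 and the common biological coefficient of variation 0.133. CPM is the count over the effective library size. The TMM factors were 0.755 and 0.807 for the TGFβ1 libraries and between 1.087 and 1.134 for the others. Groups were taken from the labels. The procedure was tested on simulated data for TGFβ1 against vehicle, with no length trend. Known changes of 1.5, 2 and 4 times were set in 67, 67 and 66 genes. It recovered 23.9% of changes of 1.5 times, 71.6% of 2 times and 100% of 4 times, with 7 false calls among 13367 genes. Far fewer genes changed there than the 7517 called for TGFβ1 against vehicle, so the adjusted threshold was stricter in the simulation. The rates do not carry over to that comparison. A gene that did not pass may still have changed.

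Positions, strands, principal transcripts and GC content are from GENCODE vM21 on GRCm38 (mm10). The length offset takes out of each library 2 lowess trends of its log2 CPM, with a prior count of 1: along transcript length (span 0.15) and, after that, along GC content (span 0.3). It has values for 98.97% of tested genes. Other alternatives were DESeq2 1.42.0, its size factors in edgeR, no filter, only the libraries compared, a replicate block, each library left out, and principal transcript length for levels.

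The members, the further lists and the tests were chosen with earlier results of these data known. Values are given for members of a set picked for function and for up to 2 members per step, comparison and direction with the largest change past the threshold; other members are given by ranges or values beside them. Up to 2 genes are named for each further list and direction by the same rule. A gene of the further lists that the naming rule selects is not reported here.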

Additional observations from a re-analysis of the deposited data

How the results depend on the processing

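Each of the 43 log2 fold changes was recomputed under 13 alternatives in the 3 comparisons, 1677 values in all, of which 1581 kept their direction and their side of the threshold, 74 no longer passed and 20 newly passed. Of the members' values 2 changed sign where called, both with the length offset and neither past the threshold there: Hs2st1 for TGFβ1 against vehicle at 0.005 and Csgalnact2 for BMP2 against TGFβ1 at −0.009; the cause was not tested. A further 41 values changed sign without a call under either setting. The 25 values of the leading genes of the further lists gave 325 values, of which 307 kept direction and call, 17 no longer passed and 1 reversed, Impad1 for TGFβ1 against vehicle at 0.13 with the length offset.

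The labels do not say that replicate numbers pair the libraries, and libraries with the same number had correlations of their deviations from −0.139 to −0.000945. Those with unlike numbers had correlations from −0.0859 to 0.139. In a group of 2 libraries the deviations from the group mean are exact opposites, which ties these values together. They therefore cannot decide whether the numbers pair the libraries. With the replicate number as a block the fit had fewer degrees of freedom. BMP2 against vehicle then called 5 members in place of 10 and 771 genes in place of 1535. The members called were 18 for TGFβ1 against vehicle, without Chsy1, Csgalnact2, Ext1 and Hs2st1. They were 22 for BMP2 against TGFβ1, without Csgalnact2, Has3, Ugdh and Xylt2. These losses are not repeated in the lists given gene by gene above. With each library left out in turn, BMP2 against vehicle called 2 to 10 members (6 without BMP2 replicate 2) and 567 (without vehicle replicate 2) to 1699 genes, among them 652 without vehicle replicate 1 and 985 without BMP2 replicate 3. The counts of members and of all genes in the other 2 comparisons, and those for BMP2 against vehicle under the alternatives not named here, stayed within 1.5 times.

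Each group holds 2 or 3 libraries. Has1, Has3, Hs3st1, Chst3, Chst7, Chst15, Ust and Hyal1 rest on low counts. Levels per length moved by over 1.5 times in 8 members with principal transcript length.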
